A study of Mus musculus with 21 samples.

Results

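Transfected mouse embryonic stem cells edited in Ago2 were compared with transfected cells of the parental genotype. The comparison took 6 of the 21 libraries of the series: 3 labelled Ago2KO_empty and 3 labelled T6B_MUT, both from Experiment 2 and identified by these labels. All cells came from 1 mouse embryonic stem cell line of 129S6/SvEvTac background, which carried a GFP reporter with TRIM71 binding sites (GFP_5xT71BS) and stably expressed FLAG-Cas9::T2A::Blasticidin. The Ago2KO_empty cells were Ago2-/- and received an empty plasmid. The T6B_MUT cells kept the parental genotype and received a plasmid encoding a mutant T6B peptide fused to mCherry (pCIP FH-T6B_MUT::mCherry). T6B is a fragment of TNRC6B that binds Argonaute proteins. Experiment 2 had no parental cells with the empty plasmid, so plasmid and genotype differed together and their effects cannot be told apart. The labels do not say how many clones the edited line comprised, and they do not locate the edit within Ago2. The other 15 libraries were T6B_WT and Trim71KO_empty in Experiment 2 and the untransfected groups W, Trim71KO and Ago2KO in Experiment 1, with 3 libraries in each group. Cultures were kept on gelatin, with serum and LIF, and total RNA was sequenced after DNase treatment with a stranded kit. The series describes its replicates as biological. Library totals of the 6 libraries were 38.2 M to 57.9 M counts.

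AGO2 is one of the Argonaute proteins that load microRNAs. A loaded Argonaute pairs the seed of the microRNA, its bases 2 to 8, with a matching stretch in the 3′ UTR of an mRNA, and then recruits a TNRC6 protein (GW182), which brings in deadenylases and lowers translation and mRNA stability. In embryonic stem cells the miR-290 cluster is the main microRNA source, and miR-302 shares its seed. These microRNAs are known for restraining inhibitors of the G1 phase and the Nodal antagonists Lefty1 and Lefty2, and miR-17 and miR-20 carry a seed shifted by 1 base.

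The mature microRNAs below define the seed groups used in the results, and their seeds are in capitals (RefSeq, GRCm38.p6). The first 4 share AAGUGCU, miR-17-5p and miR-20a-5p share AAAGUGC, and the last 2 stand for miR-19 and miR-92 of the miR-17 to miR-92 cluster.
mmu-miR-294-3p: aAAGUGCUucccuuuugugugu
mmu-miR-291a-3p: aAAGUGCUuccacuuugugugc
mmu-miR-302b-3p: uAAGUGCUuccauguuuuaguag
mmu-miR-302d-3p: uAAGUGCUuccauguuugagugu
mmu-miR-17-5p: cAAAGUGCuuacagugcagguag
mmu-miR-20a-5p: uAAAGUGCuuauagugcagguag
mmu-miR-19b-3p: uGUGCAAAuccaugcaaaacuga
mmu-miR-92a-3p: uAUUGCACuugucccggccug

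A stretch of the 3′ UTR that holds the match AGCACTT is shown for 7 published targets of miR-290 and miR-302 whose levels are described further on (GENCODE M21, GRCm38). The match to the seed is in capitals. A match is a description of the sequence and does not show that the site was used.
Lefty2, chr1:180897907-180897934, plus strand: acccagtttaAGCACTTacatgggtaaa
Lefty1, chr1:180938203-180938230, plus strand: ctgtatgcgaAGCACTTacatgtataga
Rbl2, chr8:91123820-91123844, plus strand: ttttcaataaAGCACTTataaatta
Tgfbr2, chr9:116087761-116087788, minus strand: caaaacctaaAGCACTTattttcaatct
Lats2, chr14:57691076-57691103, minus strand: gtatggaaagAGCACTTattttgtggat
Cdkn1a, chr17:29100490-29100517, plus strand: tgggtgtcaaAGCACTTagtgggtctga
Ei24, chr9:36779878-36779905, minus strand: ctgtttttttAGCACTTgccagctcctg

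The targeted gene was examined first. Ago2 (ENSMUSG00000036698, chromosome 15, 73095844 to 73184935, minus strand) stood at 113, 143 and 112 CPM (counts scaled by TMM and library size) in T6B_MUT replicates 1, 2 and 3. In the libraries labelled Ago2KO_empty it stood at 87.4, 167 and 45.6 CPM. Replicate 2 was above every control library, and replicates 1 and 3 were below every control library. The log2 fold change of Ago2KO_empty against T6B_MUT was -0.30 ± 0.38 (SE, n = 3 per group), and Ago2 was not called by the edgeR quasi-likelihood test (adjusted p = 0.601). Here and throughout, called means an adjusted p under 0.05 (Benjamini-Hochberg, over all tested genes). Without Ago2KO_empty replicate 2 the value was -0.90 and the gene was called (adjusted p = 0.0382), and without replicate 3 it was 0.02 (adjusted p = 0.957). Untransfected Ago2KO libraries of Experiment 1 held 39.8 to 43.6 CPM against 134 to 153 CPM in W, a log2 fold change of -1.76. The counts cover the whole gene and do not measure the protein. Since the Ago2 level went against the label in replicate 2, each result below refers to the libraries labelled Ago2KO_empty, and those that rest on 1 library are given without it.

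Transcripts of the other proteins of the silencing complex were mostly higher. Of the 7 Argonaute and TNRC6 genes, 5 were called higher and 1 lower, where 16.4% of all tested genes were called higher and 12.4% lower. Tnrc6a rose from 72.7, 81.2 and 71.9 CPM to 119, 151 and 92.5 CPM (log2 fold change 0.68 ± 0.14 SE, edgeR adjusted p = 0.00411), and Tnrc6c and Ago1 rose by 0.29 and 0.47. Ago3 stood at 19, 22.0 and 19.8 CPM and then at 40.5, 54.5 and 21.9 CPM, so its groups overlapped in replicate 3. Its log2 fold change of 0.95 lost its call in 5 of the 6 fits that left out 1 library and was 0.61 without Ago2KO_empty replicate 2. Ago1 was 0.25 without that replicate, and Ago4, at 1.03 CPM or less, was no longer called without replicate 1. Without Ago2KO_empty replicate 1, 3 genes of the list were called higher, the lowest count among these fits.

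Tnrc6b, a TNRC6 protein gene on chromosome 15 (80711313 to 80941085, plus strand), went the other way. It was at 227, 245 and 217 CPM in T6B_MUT and at 108, 145 and 75.4 CPM in Ago2KO_empty, without overlap. The log2 fold change was -1.07 ± 0.20 (SE, edgeR adjusted p = 0.00514). In Experiment 1 it was 0.41, and the difference between the effects passed the test (adjusted p = 0.00128). The T6B_WT libraries held 231 to 268 CPM and the Trim71KO_empty libraries 67.6 to 84.8 CPM. Untransfected W and Ago2KO libraries held 48.1 to 51.8 and 61.8 to 68.2 CPM. All 6 libraries with a T6B plasmid were therefore above all 6 with the empty plasmid. Reads from the plasmid's TNRC6B fragment can enter the counts of this gene, and their part in the difference was not tested.

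**Figure D1:**
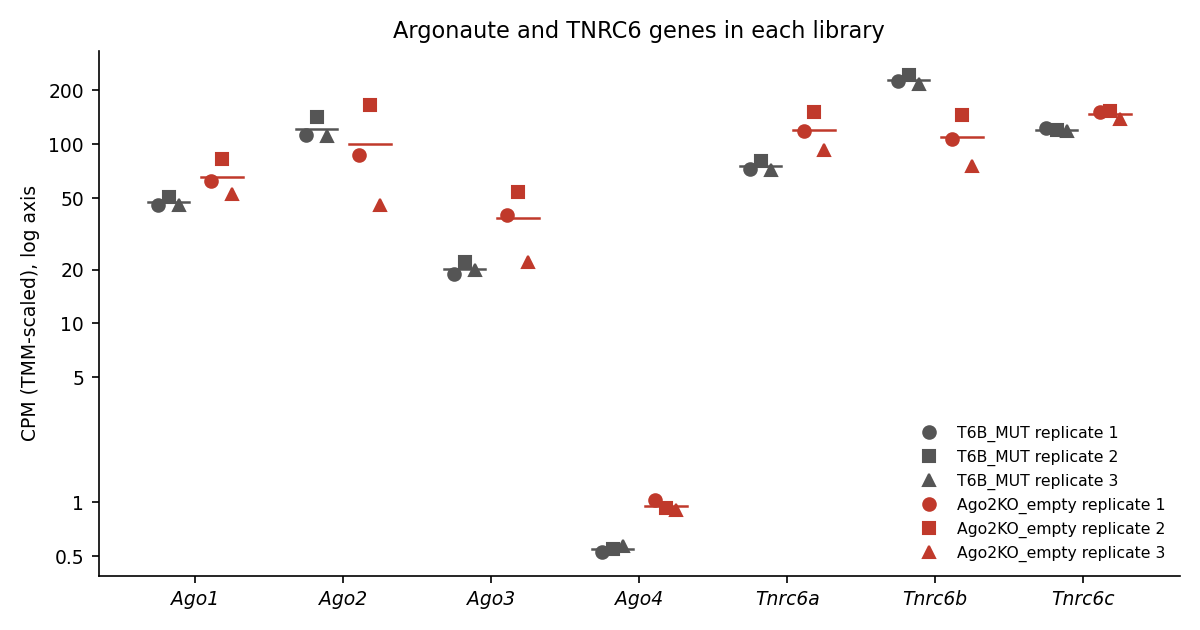
TMM-scaled CPM (log axis) of the Argonaute and TNRC6 genes in each T6B_MUT library (grey) and each Ago2KO_empty library (red), with the mean of each group as a line. Ago2 in Ago2KO_empty ran from 45.6 to 167 CPM and spanned the controls, while Tnrc6b was lower in all 3 libraries.

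The libraries labelled Ago2KO_empty differed more among themselves than the controls did. Over the 12699 genes whose mean log2 CPM reached 2, the median range within a group was 0.22 on the log2 scale in Ago2KO_empty and 0.12 in T6B_MUT, and 319 genes against 1 ranged over at least 1 log2 unit. Principal components of the 6 libraries were taken only from the genes at this level that varied most across them. On the first, which held 74.6% of the variance of those genes, the controls lay at -15.5 to -12.2. Ago2KO_empty replicates 1, 2 and 3 lay at 15.7, 24.1 and 3.03. Polr2a, the largest subunit of RNA polymerase II, read 145, 423 and 59.4 CPM in these 3 libraries. The chromatin regulators Kdm6b and Setd1b had the same order, which was also that of Ago2. In T6B_MUT replicates 1, 2 and 3 Polr2a read 60.3, 104 and 55.1 CPM. Kdm6b, Setd1b and Ago2 were likewise highest in replicate 2 of T6B_MUT, with a smaller spread. Polr2a, Kdm6b and Setd1b were chosen after their values were seen. Replicate 2 held 3.42% of its counts in Gm26917, a long noncoding RNA, against 0.711% to 1.01% in the other 5 libraries. Replicate 1 held 1101 CPM of the ribosomal RNA gene CT010467.1 against 42.5 to 80.7 CPM elsewhere. Marker sums of embryonic stem cells were alike, at 4350 to 4510 CPM in T6B_MUT and 4040 to 4470 CPM in Ago2KO_empty. Fibroblast markers summed to 4.04 to 4.68 and 4.36 to 5.26 CPM (3 of 7 genes listed in the table), neural markers to 85.2 to 92.2 and 80.5 to 90.4 CPM, and trophectoderm markers stayed under 1 CPM in all 6 libraries. In bulk RNA, fewer cells of a type and less RNA per cell cannot be told apart.

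Of 21505 genes tested, 6201 were called, or 28.8%. More were higher than lower, with 3531 higher and 2670 lower in the libraries labelled Ago2KO_empty, and most changes were small. Only 834 of the higher and 99 of the lower genes changed by at least 1 on the log2 scale. The excess of higher genes lay at low levels, since 2275 were higher and 2261 lower at a mean log2 CPM of 2 or more. Without the low-count filter, 3216 genes were called higher and 3022 lower. Where the mean log2 CPM reached 2, the groups did not overlap for 2149 of the 2275 called higher and 2210 of the 2261 called lower, against 6249 of all 12699. The test itself favours genes whose groups lie apart, so these counts only describe the calls. The median log2 ratio of these genes called higher was 0.42, 0.44 and 0.30 in Ago2KO_empty replicates 1, 2 and 3, and that of the genes called lower was -0.38, -0.37 and -0.24. Replicate 3 thus had the smallest shift in both directions. The call count was 8083 without that replicate, 3923 without replicate 1 and 3894 without T6B_MUT replicate 1.

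Where the mean log2 CPM reached 2 and the groups did not overlap, the called increases were led by Dglucy and Galnt6 and by genes of the 2-cell-like state. Dglucy, a mitochondrial enzyme of D-glutamate metabolism (ENSMUSG00000021185, chromosome 12, 100779057 to 100896981, plus strand), was at 2.10, 2.11 and 2.32 CPM in T6B_MUT and at 11, 13.0 and 11.1 CPM in Ago2KO_empty. The groups were far apart, with a log2 fold change of 2.42 ± 0.11 (SE, edgeR adjusted p = 4.35e-11), against 1.78 in Experiment 1. Galnt6, an enzyme that starts mucin-type O-glycans (chromosome 15, 100691813 to 100729376, minus strand), went from 9.79, 9.35 and 9.23 to 48.9, 45.1 and 52.6 CPM. This was an increase of 2.37 ± 0.09 on the log2 scale (SE, adjusted p = 6.50e-12). Dglucy overlaps Gm48771 on its strand, and Galnt6 overlaps Galnt6os on the other strand. Whether strand was used in counting is not stated, so reads of such pairs may be shared. Of the 12 largest increases under this rule, the other 10 were Zscan4a, Zscan4c, Zscan4d, Zscan4e, Zscan4-ps2 and Zscan4-ps3, the genes Eif1ad3, Eif1ad7 and Eif1ad8, and Gm8332, which lies beside Eif1ad7. Their log2 fold changes were 1.89 to 2.09. The annotation lists Zscan4a as an unprocessed pseudogene and the other Zscan4 entries named here as protein coding.

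By the same rule, decreases were led by a mitochondrial enzyme and by genes of epithelial cells. Mccc2, a subunit of the carboxylase that breaks down leucine (ENSMUSG00000021646, chromosome 13, 99948530 to 100015639, minus strand), was at 13.5, 14.5 and 13.5 CPM in T6B_MUT and at 3.90, 4.30 and 4.52 CPM in Ago2KO_empty. It fell by 1.71 on the log2 scale (SE 0.10, edgeR adjusted p = 6.52e-10), and Experiment 1 gave -1.88. Sfn, the epithelial 14-3-3 protein and a known p53 target, went from 15.4, 16.5 and 13.8 CPM to 5.15, 4.71 and 5.61 CPM (log2 fold change -1.56 ± 0.11 SE, adjusted p = 9.17e-09). Bspry, Lad1, Cldn6, Crb3, Des, Ap1m2, Lrp8os2, Lefty2, Klhl23 and Spry1 completed the 12 largest decreases, at log2 fold changes of -1.60 to -1.10. No library of one group overlapped the other for any of these 24 genes, as the rule that chose them required.

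Published targets of miR-290 and miR-302 moved in both directions. Of 14 tested, 7 were called higher (50.0%, against 16.4% of all genes) and 4 lower (28.6%, against 12.4%). The median log2 fold change was 0.19, against 0.03 over all tested genes. Those that rose included cell cycle inhibitors and a TGF-beta receptor, and those that fell included the Nodal antagonists. Without Ago2KO_empty replicate 1 or T6B_MUT replicate 2 the counts were 6 higher and 2 lower. Irf2, a further member of the list, is not analysed here.

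Rbl2, the retinoblastoma-related protein p130, was at 11.8, 12 and 12 CPM in T6B_MUT and at 22.7, 20.6 and 17.8 CPM in Ago2KO_empty, a log2 fold change of 0.77 ± 0.09 (SE, edgeR adjusted p = 9.84e-06). Ei24, a protein of the endoplasmic reticulum linked to p53 and autophagy, was at 109, 110 and 110 CPM and then at 180, 172 and 181 CPM (0.70 ± 0.06 SE, adjusted p = 1.10e-07). Lats2, a Hippo pathway kinase, was at 9.81, 9.47 and 9.29 CPM and then at 14.5, 15.0 and 12 CPM (0.54 ± 0.10 SE, adjusted p = 6.42e-04). None of these 3 genes overlapped between the groups. Tgfbr2, the type II TGF-beta receptor, rose by 0.70 from about 2 CPM. Cdkn1a, the kinase inhibitor p21, went from 6.01, 6.50 and 6.12 to 8.34, 11 and 7.58 CPM. Its log2 fold change of 0.53 (adjusted p = 0.0197) was 0.34 without Ago2KO_empty replicate 2, and the call was lost there and without T6B_MUT replicate 1 or 3. The methyl-CpG binding protein gene Mbd2 rose by 0.46. Wee1, a kinase that holds back mitosis, was called at 0.23 but only in 1 of the 6 fits without a library, and was 0.13 without Ago2KO_empty replicate 2. Fbxl5 (0.16) and Akt1 (0.05) were not called.

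Both Lefty genes were lower, and each 3′ UTR holds the match printed above. Lefty2 was at 28.3, 25.4 and 30.2 CPM in T6B_MUT and at 11.6, 12.8 and 14.4 CPM in Ago2KO_empty. The groups were well separated, and the log2 fold change was -1.11 ± 0.20 (SE, edgeR adjusted p = 0.00268), against -0.72 in Experiment 1. Lefty1 was at 12.6, 12.9 and 12.9 CPM and then at 5.69, 7.20 and 8.47 CPM, which gave -0.85 ± 0.16 on the log2 scale (SE, adjusted p = 0.00111). The copies Lefty1 and Lefty2 are similar in sequence, and how reads that fit both were counted is not stated. Casp2 (-0.23) and Rhoc (-0.24) were also called lower and lost the call in 3 and 4 of the 6 fits without a library. Dkk1, a Wnt antagonist near 1 CPM, was not called at -0.75.

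**Figure D2:**
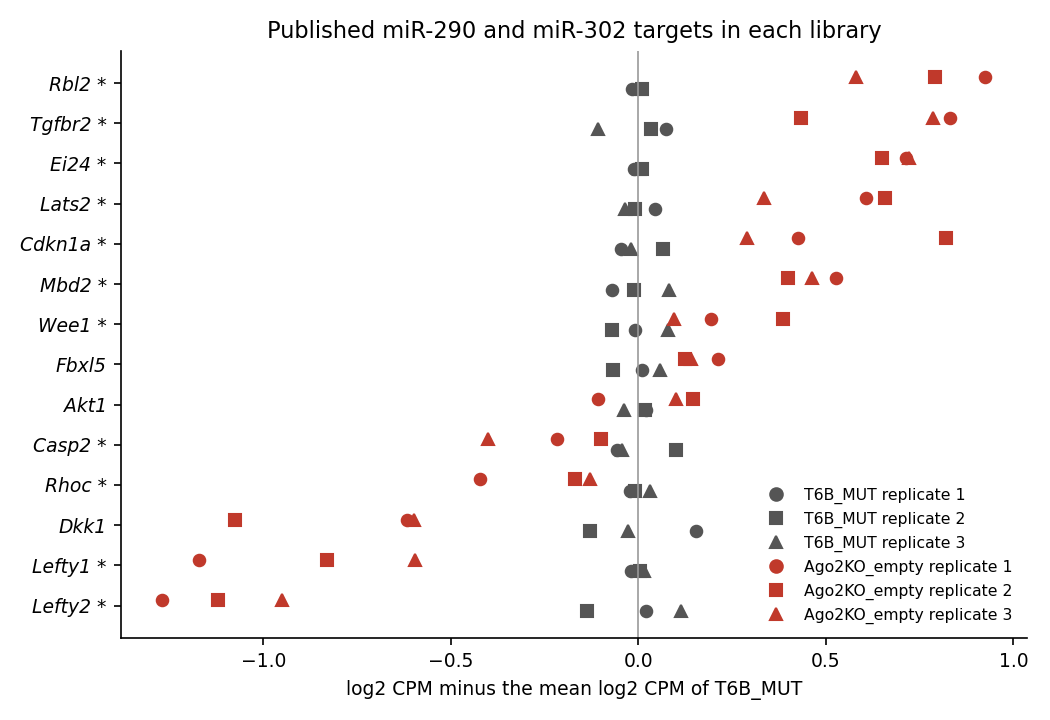
Log2 CPM of the 14 tested miR-290 and miR-302 targets in each library, relative to the mean log2 CPM of T6B_MUT, with T6B_MUT in grey, Ago2KO_empty in red and called genes marked by an asterisk. Rbl2, Tgfbr2 and Ei24 lie to the right of all controls in every Ago2KO_empty library, and Lefty1 and Lefty2 lie to the left.

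Beyond the published targets, genes were grouped by whether the 3′ UTR held the 7 letters that match a seed, searched on the transcribed strand only. The longest annotated 3′ UTR of each gene was used, for the 10522 genes that had one and a mean log2 CPM of 2 or more. Of these, 1890 (18%) held AGCACTT, the match of miR-290 and miR-302. Among them 32.1% were called higher and 9.10% lower, with a median log2 fold change of 0.13. Among the 8632 genes without it, 17.3% were higher and 19.1% lower, with a median of -0.01. The match GCACTTT of miR-17 and miR-20 shares the letters GCACTT with it and had 35.7% higher and 7.40% lower. Requiring an A after that match raised the share to 43.2%, while for miR-290 and miR-302 it gave 33.4%. Among other microRNAs known in these cells, shares were 33.3% for miR-21 (ATAAGCT), 33.2% for miR-130 and miR-301 (TTGCACT), 31.5% for miR-26 (TACTTGA), 31.4% for miR-25 and miR-92 (GTGCAAT), 31.0% for miR-19 (TTTGCAC), 29.4% for miR-30 (TGTTTAC) and 25% for miR-15 and miR-16 (TGCTGCT). The matches of miR-130 and miR-19 share the letters TTGCAC. The share was 24.1% for let-7 (CTACCTC), which is scarce in these cells. The share for miR-290 and miR-302 thus lay within the range of the other families.

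Matches to microRNAs known from other tissues gave shares between 26.6% and 28.5%. These were miR-9 of neurons, miR-142 and miR-223 of blood cells, miR-1 and miR-206 of muscle and miR-216 of pancreas. Genes with a match also had longer 3′ UTRs, with a median of 2553 bases with AGCACTT and 987 bases without. In 4 classes of 3′ UTR length, equal in number over all tested genes, 35.3% of those with AGCACTT and 27.4% of those without were called higher in the longest class. The shares were 32.1% and 19.1% in the next class, 21.1% and 15.6% in the one after it, and 15.6% (of 64 genes) and 9.97% in the shortest. The genes with a match thus had the larger share in each class, and both shares grew with length. The shift differed between libraries, with medians of 0.13, 0.17 and 0.05 for genes with AGCACTT in Ago2KO_empty replicates 1, 2 and 3.

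Gene length also divided the genes. Genes were split into 5 equal classes by deposited gene length. In the longest class (6256 bases or more), 31.8% were called higher and 5.77% lower. In the shortest class (53 to 1008 bases), 5.49% were called higher and 12.5% lower. Of all tested genes, 16.4% were called higher and 12.4% lower. The shortest class thus had a low share called higher, while its share called lower was near that of all genes. The next shortest class and the middle class had larger shares called lower than the shortest class. The median log2 ratio of the longest class was 0.19 and 0.28 in Ago2KO_empty replicates 1 and 2 and 0.04 in replicate 3, and that of the shortest class was -0.14, -0.17 and -0.04. Genes by 3′ UTR length showed the same order, with 29.9% called higher in the longest of 4 classes (2224 bases or more) and 12.6% in the shortest. Replicate 3 therefore held little of either trend. Processed pseudogenes, which are short copies of mRNAs, had 4.54% called higher and 14.4% lower of 3457, against 16.4% and 12.4% of all tested genes. Sense-intronic transcripts had median log2 ratios of 0.38 and 0.62 in replicates 1 and 2 and -0.18 in replicate 3. The part of length and of transcript type in any single gene's change was not tested.

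**Figure D3:**
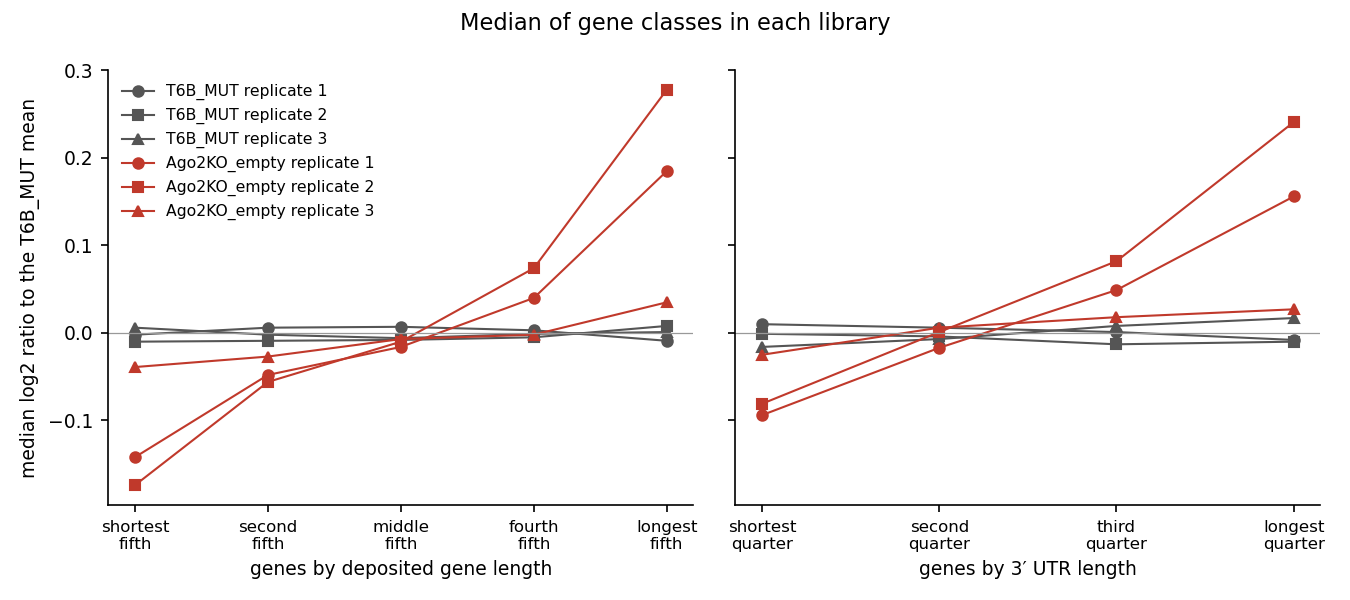
Median log2 ratio to the T6B_MUT mean, by library, for 5 classes of all tested genes by deposited gene length (left) and 4 classes of genes by 3′ UTR length (right), with T6B_MUT in grey and Ago2KO_empty in red. The longest class on the left lay at 0.19, 0.28 and 0.04 in Ago2KO_empty replicates 1, 2 and 3, while the controls stayed near 0 in each class.

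Many epithelial genes fell and several mesenchymal genes rose. Of 36 epithelial genes, 17 were called lower (47.2%, against 12.4% of all genes) and 2 higher (5.56%, against 16.4%), with a median log2 fold change of -0.30. Those that fell covered a transcription factor, splicing factors, junction proteins and keratins. Grhl2, a transcription factor that maintains epithelial cells, went from 10.9, 12.5 and 10.5 CPM to 6.03, 6.08 and 5.20 CPM (log2 fold change -0.97 ± 0.11 SE, edgeR adjusted p = 3.96e-06). Cldn6, a tight junction claudin of pluripotent cells, went from 8.21, 8.97 and 8.99 CPM to 3.36, 3.01 and 3.53 CPM (-1.40 ± 0.12 SE, adjusted p = 1.10e-07). The groups did not overlap for either gene. Esrp1, which directs epithelial splicing, fell by 0.90, the polarity protein gene Crb3 by 1.32 and the keratin gene Krt8 by 0.47. Krt18 (-0.37) lost its call without Ago2KO_empty replicate 1. Dsp (0.36) and Tjp1 (0.31), large junction proteins, were called higher, and Dsp was 0.20 and not called without replicate 2.

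Zeb1, a repressor of epithelial genes and a long-known target of the miR-200 family, went from 26.5, 26.5 and 28.1 CPM to 44.4, 46.9 and 41.1 CPM. The groups were apart, with a log2 fold change of 0.71 ± 0.07 (SE, edgeR adjusted p = 8.88e-07). Vim, the mesenchymal intermediate filament, was called at 0.45 and lost its call in 5 of the 6 fits that left out 1 library. Of 10 mesenchymal genes 5 were called higher (50.0%, against 16.4% of all genes). This count fell to 2 without any 1 of the T6B_MUT libraries and to 3 without Ago2KO_empty replicate 2. The epithelial median was -0.32, -0.33 and -0.29 in Ago2KO_empty replicates 1, 2 and 3. In Experiment 1, 17 of the 36 epithelial genes were called lower and 5 higher. Of the 20588 genes tested in both experiments, 1635 were lower in Experiment 1 and 2145 higher.

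Known p53 target genes were mostly higher. Of 26, 16 were called higher and 1 lower, with a median of 0.40, and 61.5% called higher compares with 16.4% of all genes. Ccng1, cyclin G1, was at 732, 680 and 770 CPM in T6B_MUT and at 1623, 1288 and 1511 CPM in Ago2KO_empty (log2 fold change 1.02 ± 0.10 SE, edgeR adjusted p = 8.85e-07). The groups were far apart. The pro-apoptotic gene Bbc3 (PUMA) rose by 0.43. The gene called lower was Pmaip1 (NOXA), which at -0.27 lost that call in 3 of the 6 fits without a library. Sfn, which was on the epithelial list and not on this one, fell as described. Cdkn1a and Ei24 were also on the list of miR-290 and miR-302 targets, and 11 to 15 p53 targets were called higher in the fits without 1 library. The list's median was 0.46, 0.40 and 0.29 in replicates 1, 2 and 3.

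Cell cycle regulators and the BCL2 family held genes called in each direction. Of 34 regulators, 6 were called higher (17.6%, near the 16.4% of all genes) and 12 lower (35.3%, against 12.4%), and 6 were lower without Ago2KO_empty replicate 1. Rb1, the retinoblastoma protein that holds cells in G1, went from 22.3, 21.3 and 23.1 CPM to 59.4, 63.1 and 45.0 CPM (log2 fold change 1.33 ± 0.13 SE, edgeR adjusted p = 9.98e-06). All 3 libraries labelled Ago2KO_empty were at least 45.0 CPM, above every control, although Rb1 overlaps Lpar6 and Rcbtb2 on the other strand. Ccnd2, cyclin D2, was at 5.42, 12.2 and 5.20 CPM against 2.71, 3.05 and 2.48 CPM, and its log2 fold change of 1.47 was 0.94 without replicate 2. E2f2, an activator of S-phase genes, fell by 0.79 and Ccne1, cyclin E1, by 0.54. Of 24 BCL2 family and caspase genes, 4 were higher (16.7%, again near the share of all genes) and 9 lower (37.5%), with 4 lower without T6B_MUT replicate 1 and 5 without Ago2KO_empty replicate 1. The pro-apoptotic genes Bok and Bid fell by 0.98 and 0.53. Bcl2l11 (BIM) was called at 0.44 and was 0.28 and not called without replicate 2.

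Genes of the proteasome, oxidative phosphorylation and cholesterol synthesis were lower by small amounts. Of 41 proteasome genes, 26 were called lower and 1 higher (63.4% lower, against 12.4% of all genes), with a median of -0.23. Psmc4, an ATPase of the 19S particle, went from 262, 263 and 247 CPM to 179, 176 and 211 CPM (log2 fold change -0.45 ± 0.07 SE, edgeR adjusted p = 1.98e-04), without overlap. Psmb10, an immunoproteasome subunit, fell by 0.74. Psma8, a subunit known from the testis, rose by 0.51. Of 84 nuclear genes of oxidative phosphorylation, 41 were called lower (48.8%) and 1 higher, with a median of -0.20. Uqcr11 of complex III fell by 0.50 and Atp5e of the ATP synthase by 0.49.

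These decreases were weaker in 1 library. The proteasome median was -0.30, -0.29 and -0.12 in Ago2KO_empty replicates 1, 2 and 3, and that of oxidative phosphorylation was -0.28, -0.27 and -0.09. Replicate 3 was nearest to 0 in each, as it was for the shortest genes. Without Ago2KO_empty replicate 1, 16 proteasome and 15 oxidative phosphorylation genes were called lower, and without replicate 3 the counts were 33 and 59. The part of gene length was not tested. Of 24 cholesterol synthesis genes, 11 were called lower (45.8%, against 12.4% of all genes), with a median of -0.20. Hsd17b7, an enzyme of sterol demethylation, fell by 0.62 and Mvk, mevalonate kinase, by 0.40. In Experiment 1, 1 of these 24 genes was called higher and 1 lower, where 2145 of 20588 genes were higher and 1635 lower.

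Glycine and glutamate enzymes and glycolysis also leaned lower. Of 23 glutamate cycle and one-carbon metabolism genes, 11 were called lower (47.8%, against 12.4% of all genes) and 2 higher (8.7%, against 16.4%). Gldc, the glycine decarboxylase that feeds one-carbon units in stem cells, went from 93.0, 94.7 and 94.7 CPM to 43.0, 45.8 and 48.1 CPM (log2 fold change -1.05 ± 0.08 SE, edgeR adjusted p = 3.47e-08), and its groups were far apart. Of 22 glycolysis genes, 7 were called lower (31.8%) and 1 higher (4.55%). Without Ago2KO_empty replicate 1, T6B_MUT replicate 1 or T6B_MUT replicate 2, 4 were lower. Pkm, pyruvate kinase, fell by 0.49 and Pgk1, phosphoglycerate kinase, by 0.49, while Pfkp, a phosphofructokinase, rose by 0.69. Of 20 cytosolic tRNA synthetases, 6 were called lower, and 15 were lower without Ago2KO_empty replicate 3. Farsb, of the phenylalanine enzyme, fell by 0.39. Of 85 cytosolic ribosomal protein genes, 9 were called lower (10.6%, under the 12.4% of all genes) and 4 higher, with 34 lower without that replicate and 5 without Ago2KO_empty replicate 2. The higher count was 5 in that last fit and 1 or 2 in the other 5 fits that left out 1 library.

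**Figure D4:**
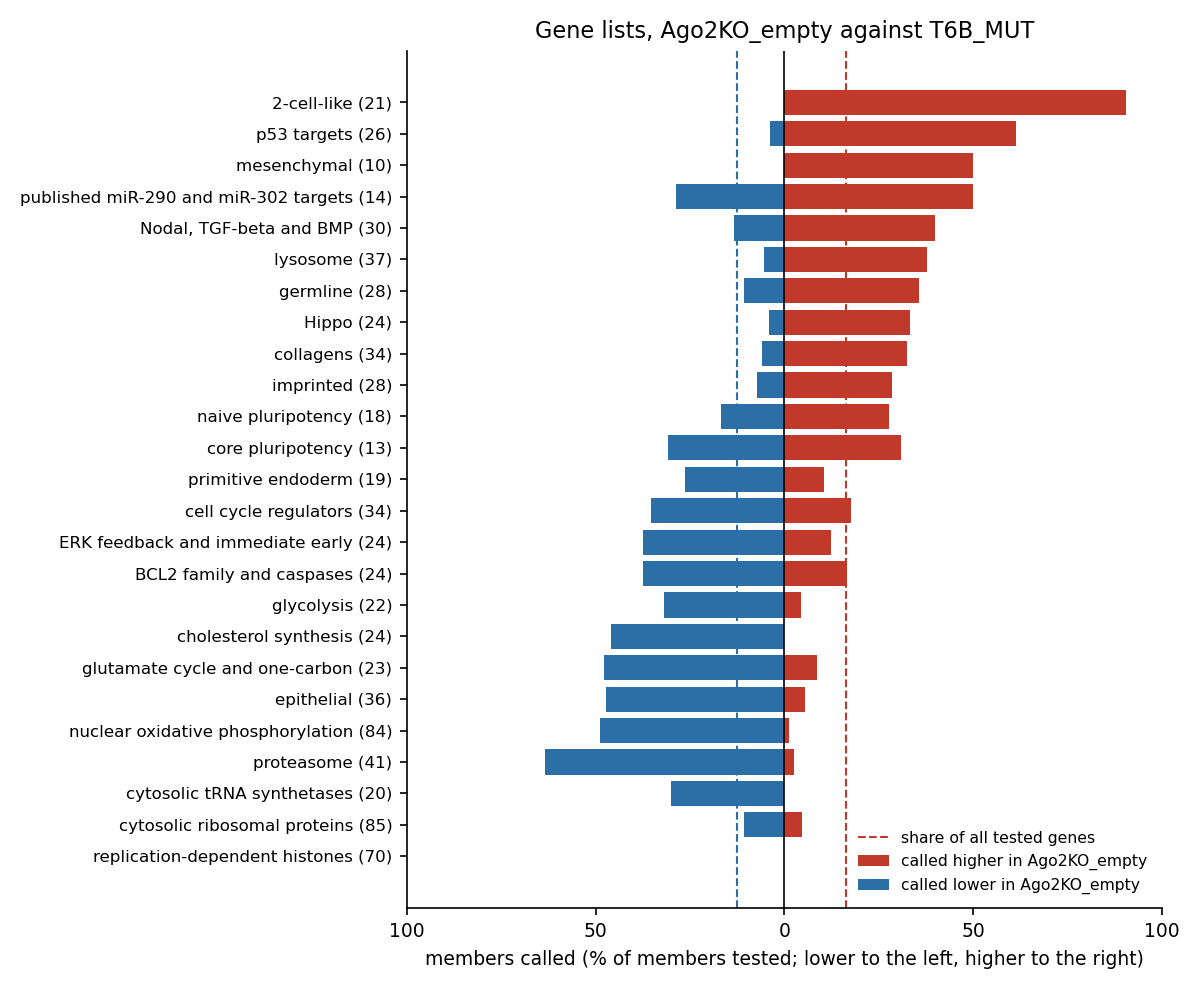
Share of tested members called higher (red, right) and lower (blue, left) in Ago2KO_empty for 25 gene lists, with the number of tested members in brackets and the share of all tested genes as dashed lines (16.4% higher, 12.4% lower). The 2-cell-like and p53 lists have the longest bars to the right, and the proteasome, oxidative phosphorylation, glutamate and epithelial lists the longest to the left.

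The Nodal and Hippo lists leaned higher and the ERK list lower, where 16.4% of all tested genes were called higher and 12.4% lower. Of 30 genes of Nodal, TGF-beta and BMP signalling, 12 were called higher and 4 lower, with a median of 0.24 that was 0.09 without Ago2KO_empty replicate 2. The inhibitory SMAD gene Smad6, under 2 CPM in the controls, rose by 1.13, and Fst, follistatin, which binds activins, rose by 0.73 from 13.1, 13.4 and 14.4 CPM to 24.8, 20.3 and 22.9 CPM (edgeR adjusted p = 2.65e-05). Inhbb, an activin subunit, fell by 0.66, alongside both Lefty genes. Of 24 genes of ERK feedback and immediate early response, 9 were called lower (37.5%) and 3 higher (12.5%). The higher count was 1 without any 1 of the T6B_MUT libraries. Spry1, a Sprouty protein that dampens ERK signalling, went from 16.8, 17.4 and 17.3 CPM to 7.77, 8.27 and 8.03 CPM (log2 fold change -1.10 ± 0.09 SE, adjusted p = 5.33e-08). The ERK-responsive factor Etv4 fell by 0.78 and its relative Etv1 rose by 0.46. Of 24 Hippo genes, 8 were higher (33.3%) and 1 lower (4.17%), with 4 lower without Ago2KO_empty replicate 2. Ptpn14 and Mob1a, which restrain YAP or assist the LATS kinases, rose by 0.78 and 0.55, and Amot fell by 0.54.

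Pluripotency genes kept high levels with small shifts. Of 13 core factors 4 were called higher and 4 lower, or 30.8% each, against 16.4% and 12.4% of all genes. These counts were 1 to 3 higher and 2 to 7 lower in the fits without 1 library. Pou5f1 (OCT4) was at 989, 986 and 927 CPM in T6B_MUT and at 727, 663 and 848 CPM in Ago2KO_empty, a log2 fold change of -0.37 ± 0.08 (SE, edgeR adjusted p = 0.00203). Nanog and Sox2 were called at 0.21 each and lost the call in 4 of the 6 fits without a library. Fbxo15, a target gene of OCT4 and SOX2, rose by 0.79 and Il6st, the shared receptor of LIF signalling, by 0.70. Fgf4 and Nr0b1 fell by 0.29 and 0.33.

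Genes of the 2-cell-like state, a rare state of stem cell cultures that resembles the 2-cell embryo, had the highest median of all lists examined. Of 21, 19 were called higher (90.5%, against 16.4% of all genes). The median log2 fold change was 1.89, with per-library medians of 1.83, 1.66 and 1.62. Zscan4c, a protein of telomere maintenance that marks the state (ENSMUSG00000054272, chromosome 7, 11005745 to 11010547, plus strand), was at 5.75, 5.95 and 5.44 CPM in T6B_MUT and at 24.0, 19.1 and 21.8 CPM in Ago2KO_empty (1.92 ± 0.09 SE, edgeR adjusted p = 7.83e-11). Eif1ad7, of a translation factor family expressed in this state, went from 6.75, 5.56 and 6.17 CPM to 30.4, 20.9 and 27.8 CPM. The groups were far apart for both. Tcstv3 and Zfp352 rose by 1.90 and 1.40 from under 1 CPM. Many of these genes are near-identical copies whose reads may be split between members, so the value of a single copy is uncertain.

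The direction was opposite in Experiment 1. For the same list, 11 of 16 tested genes were called lower in Ago2KO against W, with a median of -1.79. Of the 20588 genes tested in both experiments, 1635 were lower in Experiment 1. Zscan4c gave -2.16 there, and the difference between the effects passed the test (adjusted p = 1.86e-13). Against Trim71KO_empty, which received the same empty plasmid, Zscan4c in Ago2KO_empty was 1.93 higher on the log2 scale (adjusted p = 3.94e-11), and these groups differ in genotype. T6B_WT against T6B_MUT, which shares the control libraries, gave 2.22 for this gene.

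Some primitive endoderm genes fell, and several had a smaller effect than in Experiment 1. Of 19, 5 were called lower (26.3%, against 12.4% of all genes) and 2 higher (10.5%, against 16.4%), with a median of -0.15. Without Ago2KO_empty replicate 2 the median was -0.27, with 7 lower and 1 higher, and without T6B_MUT replicate 1 it was -0.26, with 3 lower and 1 higher. Without T6B_MUT replicate 3 the counts were also 3 lower and 1 higher, and without Ago2KO_empty replicate 3 they were 3 and 3. Experiment 1 had 14 lower with a median of -1.20, where 1635 of the 20588 genes tested in both experiments were lower there. Dab2, an endocytic adaptor of this lineage, fell by 1.01 and Sox17 by 0.76, and both were under 3 CPM. Pdgfra, a receptor that marks the lineage, was at 9.15, 8.68 and 8.52 CPM in T6B_MUT and at 6.52, 8.79 and 6.10 CPM in Ago2KO_empty. Its groups overlapped through replicate 2 and it was not called at -0.30, against -2.13 in Experiment 1. The difference between the effects passed the test for Pdgfra (adjusted p = 3.74e-07) and for Sox17 (adjusted p = 9.75e-04). Gata6 was called at -0.41, lost the call in 4 of the 6 fits without a library, and also differed between experiments (adjusted p = 1.26e-05). The markers of this lineage summed to 25.3 to 26.0 CPM in T6B_MUT and to 16.4 to 22.9 CPM in Ago2KO_empty.

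**Figure D5:**
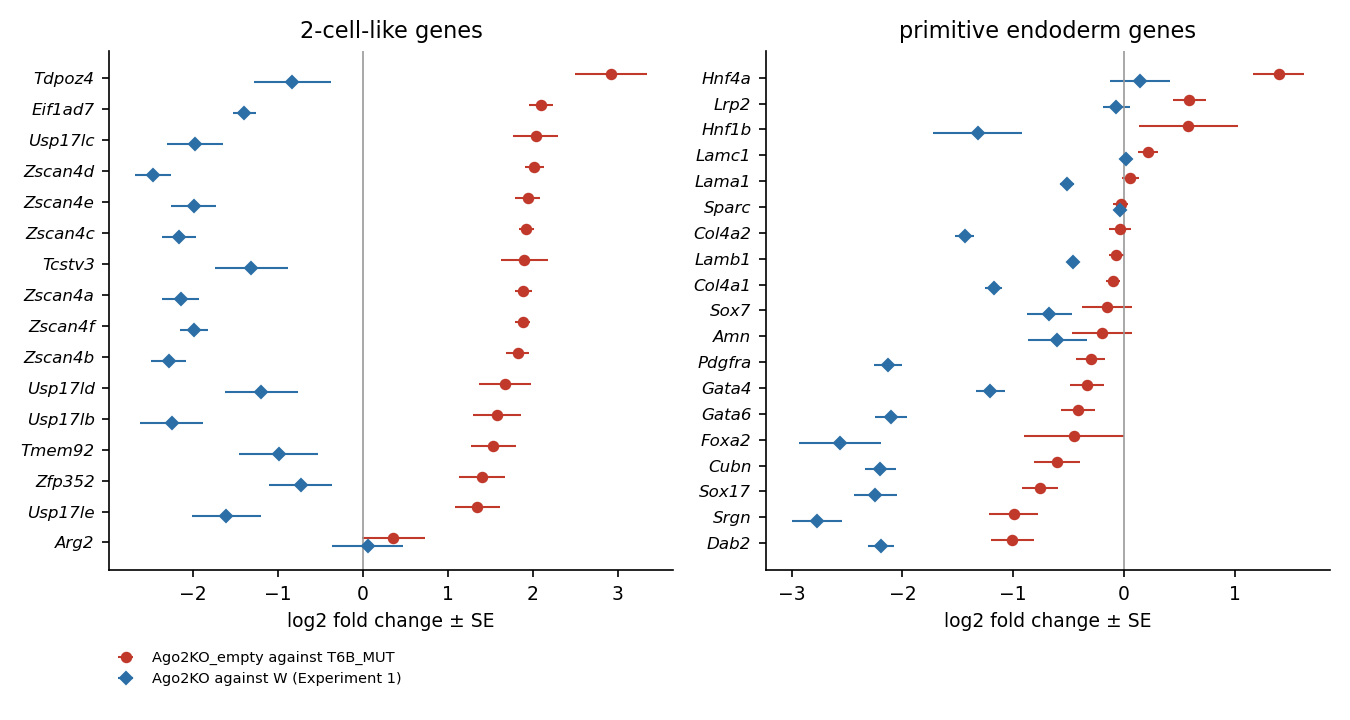
Log2 fold change with its SE for 2-cell-like genes (left) and primitive endoderm genes (right) tested in both experiments, for Ago2KO_empty against T6B_MUT (red) and Ago2KO against W in Experiment 1 (blue). Zscan4c lies at 1.92 here and at -2.16 in Experiment 1, and Pdgfra at -0.30 and -2.13.

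Across all genes, most of what was called in untransfected Ago2KO cells was called in the same direction here, but the largest decreases there were not. Experiment 1 called 3811 of 21210 genes (18%) between Ago2KO and W, which share no library with the groups compared here. Of the 2145 that were higher there and tested here, 1453 (67.7%) were called higher and 11 lower. Of the 1635 that were lower there, 923 (56.5%) were called lower and 61 higher. Over the 20588 genes tested in both, 15.9% were called higher here and 13.0% lower. Of the 134 genes lower by 1 log2 unit or more there, 41 were called higher here and 40 lower. Of the 35 among them with a mean log2 CPM of 2 or more, 20 were higher and 9 lower, with a median log2 fold change of 1.40. These 20 were Zscan4 entries on chromosome 7, Eif1ad genes and Gm8332 on chromosome 12, and Gm genes near Gm21293 on chromosome 10. They lie in clusters and include the 2-cell-like genes described above, and reads of similar copies may be shared. The reversal at this level is thus not a trend across many separate genes. All 57 genes at this level that were higher by 1 or more there were also called higher here. The 2145 genes had a median log2 ratio of 0.39, 0.42 and 0.31 in Ago2KO_empty replicates 1, 2 and 3. Kdr, the VEGF receptor, rose by 1.77 here and by 1.27 there, and Notum, a secreted Wnt inhibitor, by 1.11 and 1.27. The test of the difference between the effects called 473 of 22258 genes (2.13%), so that few single genes were shown to respond differently. Of the 472 also tested here, 324 were more positive here than in Experiment 1 and 148 more negative.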

How the data were processed

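Total RNA of mouse embryonic stem cells was sequenced in 21 libraries. The authors deposited 1 table with 22512 genes, in raw read counts and RPKM, per the file headers. Per the submitters' processing notes, bcl2fastq 2.17 and STAR 2.7.3a were used and the builds named are GRCm38 and mm10. The authors also deposited a gene length in bases, handled here as a score, and RPKM values scaled by it. The lowest row total was 17 counts, and whether counting used strand is not given in the sources used here. Coordinates, overlaps and 3′ UTRs came from GENCODE M21 (GRCm38), and 22480 IDs matched it.

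Raw counts of the 12 libraries of Experiment 2 were fitted together with edgeR 4.0.16 in R 4.3.3 (robust quasi-likelihood F test, TMM scaling, filterByExpr with a minimum count of 10, contrast of Ago2KO_empty with T6B_MUT). The 9 libraries of Experiment 1 were fitted likewise, and all 21 for differences between experiments. CPM were scaled by TMM. Log2 ratios of single libraries used a pseudocount of 0.1 CPM. Fold changes had a median standard error of 0.12 on the log2 scale. Data were simulated for this comparison on 21505 genes. Of 50 genes raised and 50 lowered by 1 on the log2 scale, 37 each were called. For a change of 0.5, 14 of 50 raised and 21 of 50 lowered genes were called, and there were 8 false calls in all. Each gene had 1 spread for all groups there, without the wider spread of Ago2KO_empty. The false calls therefore do not measure the error rate of the real comparison. Alternatives used DESeq2 1.42.0, limma 3.58.1 (voom), RLE scaling, other filters, other sets of libraries, a replicate block and leaving out each library.

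The comparison, the gene lists and the microRNA families were chosen with earlier results of these data known, so lists are described by counts and medians without a set test. Genes named were the 12 largest increases and 12 largest decreases among called genes that reached a mean log2 CPM of 2 without overlap between the groups, up to 2 called members in each direction per list that reached a mean log2 CPM of 1, and all Argonaute, TNRC6, miR-290 and miR-302 target and cell type marker genes. Replicate pairs of both groups differed beyond sampling noise, with a chi-square per degree of freedom of 3.74 to 86.4, so each library counted as 1 replicate.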

Additional observations from a re-analysis of the deposited data

Results flagged for a closer look

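Effects that differed between the experiments are given as the log2 effect here (Ago2KO_empty against T6B_MUT) minus the log2 effect of Ago2KO against W, where a test of this difference passed an adjusted p of 0.05 in edgeR. In all, 473 genes passed. Among 2-cell-like genes the difference was 4.48 for Zscan4d, 4.35 for Zscan4-ps3, 4.24 for Zscan4-ps2, 4.07 for Zscan4c, 4.02 for Zscan4a, 3.92 for Zscan4e, 3.51 for Gm8332, 3.48 for Eif1ad7, 3.30 for Eif1ad8, 3.20 for Tcstv3, 2.97 for Eif1ad3 and 2.12 for Zfp352. All of these were higher here, and those of Experiment 1 had a negative fold change.

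Primitive endoderm genes had a less negative fold change here, by 1.82 for Pdgfra, 1.67 for Gata6, 1.58 for Cubn, 1.48 for Sox17, 1.17 for Dab2 and 0.86 for Gata4. Higher effects here were also found for the growth factor gene Igf2 (1.41), the collagen gene Col6a5 (1.13), the germline genes Dazl (0.94) and Hormad1 (0.69), and Pfkp (0.40). Lower effects here were found for Tnrc6b (-1.50), the neighbouring genes Gpa33 (-1.09) and Dusp27 (-1.05), Sfn (-0.86), Etv4 (-0.59), Des (-0.54), Dppa5a (-0.54), Psmb10 (-0.49) and Inhbb (-0.48). Plasmid, control group and experiment differ between the fold changes compared, and their parts cannot be told apart.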

How the results depend on the processing

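The counts of called genes lay within 1.5 times the 6201, 3531 and 2670 of the main analysis under RLE scaling, DESeq2, limma voom, other low-count filters, other sets of libraries and the replicate block. Counting only changes of 1 or more log2 units they were 933, 834 and 99. Leaving out 1 library gave 3894 to 8083 called, 2163 to 4379 higher and 1685 to 3704 lower genes, and 269 to 1634 genes whose effect differed between experiments. The low ends came without T6B_MUT replicate 1 or Ago2KO_empty replicate 1 and the high ends without Ago2KO_empty replicate 3. Ago2 ran from -0.90 without Ago2KO_empty replicate 2, where it was called, to 0.021 without replicate 3, where its sign reversed. Akt1, not called at 0.05, reversed to -0.017 without replicate 2 and -0.003 without replicate 3, and was 0.102 without replicate 1.

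The replicate block gave 5976 called genes, and 113 of 115 called named genes stayed called. Deviations of same-numbered libraries from their group means correlated at -0.077, 0.364 and 0.143, and only replicate 2 correlated best with its own number. Within a group these deviations depend on each other, so the correlations cannot decide whether the numbers pair the libraries. Of 1679 values for 120 named genes besides Ago2, 1562 kept direction and call, 110 lost the call, 5 gained it and 2 reversed. Of the 115 called named genes, 89 stayed called in each fit that left out 1 library, and 15 were no longer called when the 2 groups were fitted alone. Requiring an A after the seed match moved the share called higher to 43.2% for miR-17 and miR-20, 31.9% for miR-30 (from 29.4%) and 24.0% for miR-216 (from 26.8%). The limit that depth sets on genes under 1 CPM was not tested.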

Other observations

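Germline genes leaned higher. Of 28 genes, 10 were called higher and 3 lower, where 16.4% and 12.4% of all genes were, and the lower count was 1 without Ago2KO_empty replicate 1, T6B_MUT replicate 1 or T6B_MUT replicate 3. Dazl, an RNA-binding protein of germ cells, was at 14.5, 13.7 and 15.8 CPM in T6B_MUT and at 42.2, 36.2 and 39.5 CPM in Ago2KO_empty, without overlap (log2 fold change 1.42 ± 0.10 SE, edgeR adjusted p = 3.64e-08). Hormad1, a protein of meiotic chromosome axes, rose by 1.16 and Stra8, a meiosis entry gene, fell by 0.56. Experiment 1 had 4 higher and 8 lower in this list, where 2145 of 20588 genes were higher and 1635 lower.

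Of 28 imprinted genes, 8 were called higher (28.6%, against 16.4% of all genes) and 2 lower (7.14%, against 12.4%). Without T6B_MUT replicate 1, 5 were higher. Igf2, a growth factor expressed from the paternal copy, was at 1.94, 1.80 and 1.59 CPM and then at 4.32, 5.53 and 4.18 CPM (log2 fold change 1.39 ± 0.20 SE, edgeR adjusted p = 6.34e-05). Phlda2, a growth restrainer expressed from the maternal copy, fell by 1.08. Peg10 was at 115, 230 and 64.1 CPM in Ago2KO_empty against 47.0, 62.7 and 45.6 CPM, and its log2 fold change of 1.40 was 0.77 without replicate 2 and lost its call in 5 of the 6 fits that left out 1 library.

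Of 37 lysosome genes, 14 were called higher (37.8%, against 16.4% of all genes) and 2 lower (5.41%, against 12.4%). Without Ago2KO_empty replicate 1, 8 were higher. Lamp2, a protein of the lysosomal membrane, went from 47.2, 44.9 and 49.4 CPM to 87.0, 68.8 and 74.8 CPM (log2 fold change 0.70 ± 0.10 SE, edgeR adjusted p = 7.83e-05), without overlap. Of 34 collagen genes, 11 were higher (32.4%) and 2 lower (5.88%), the latter 0 without Ago2KO_empty replicate 1 or T6B_MUT replicate 1. Col11a1, a fibrillar collagen, rose by 1.19 and Col6a5 by 1.45, the latter from under 2 CPM.

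Of 50 protocadherin genes, 19 were called higher (38.0%, against 16.4% of all genes). However, 2 to 4 were called in 5 of the 6 fits that left out 1 library and 10 by DESeq2. These genes share near-identical stretches and lie in clusters. Of 21 genes on chromosome Y, 9 were called higher (42.9%, against 16.4% of all genes), with a median of 0.95. The median log2 ratio was 0.73, 0.51 and 0.47 in Ago2KO_empty replicates 1, 2 and 3, and the median in Experiment 1 was 0.42. How far the calls on chromosome Y rest on low counts or on 1 library was not tested.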
